A study of Mus musculus with 14 samples.

Results

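The comparison described here is the effect of microglia ablation in spinal cord tissue away from a demyelinated lesion. It takes 7 of the 14 RNA-seq libraries of the series: 4 libraries of distal uninjured cord from ablated mice (pools 7, 9, 11 and 13) and 3 of the same tissue from non-ablated mice (pools 1, 3 and 5), chosen by their sample titles. In ablated mice the Cx3cr1 promoter drove CreER, a recombinase that works only after tamoxifen (Cx3cr1-CreER), and the mice had 1 copy of the Rosa26-iDTR allele, which gives recombined cells a receptor for diphtheria toxin (genotype Rosa26-iDTR+/-). Non-ablated mice carried Cx3cr1-CreER without that allele (Rosa26-iDTR-/-). Every mouse of both genotypes received tamoxifen for 3 days, an injection of lysophosphatidylcholine (LPC), a lipid that strips myelin, into the ventral cord 4 to 6 weeks later, and diphtheria toxin each day until collection 5 days after LPC. The distal tissue is therefore uninjured tissue of a mouse that had a lesion elsewhere in its cord, and no library comes from a mouse without LPC or without toxin. Each library is microdissected ventral cord from 3 to 5 mice, males and females together, and such a pool counts as 1 replicate. The sex mix may differ between pools. A score of Y-linked genes ran from 3.33 (pool 13) to 7.91 (pool 7) in ablated distal pools. In non-ablated distal pools it ran from 3.67 (pool 3) to 7.72 (pool 5). Ages are labelled 8, 10, 12 and 14 months for the ablated distal pools and 2, 4 and 6 months for the non-ablated ones. These labels rise by 1 month per title across both regions although lesion and distal pieces came from the same mice, so they cannot all be true ages. Ablation and labelled age cannot be told apart here, since the labels do not overlap between the genotypes.

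Microglia are the resident macrophages of the brain and spinal cord. They depend on signals through the receptor encoded by Csf1r, carry the fractalkine receptor CX3CR1, and hold their identity through transcription factors that include PU.1, IRF8, MEF2C and SALL1 and through TGF-beta signalling. Cx3cr1 is also expressed by macrophages of the meninges and perivascular spaces and by monocytes, so the recombinase is not limited to microglia. Fewer microglia and less RNA per microglial cell cannot be told apart in bulk tissue.

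The 7 distal libraries held 23601763 to 27850088 recovered reads, with 15949 to 17405 genes detected. They varied more than the lesion libraries of the series: the median within-group SD of a gene's log2 value was 0.66 in ablated and 0.53 in non-ablated distal cord, against 0.40 in ablated and 0.24 in non-ablated lesions. In a principal component analysis of the distal libraries alone, the leading component held 33.7% of the variance and was led by ablated pool 9, at 174 against -42.8 to -6.85 in the other ablated pools and -41.3 to -17.0 in the non-ablated ones. Pool 9 also had the fewest recovered reads and the fewest genes detected of the 7. Its 100 highest genes held 42.1% of its reads, against 33.5% to 39.2% in the other distal pools. The next component held 21.3% and was led by non-ablated pool 5, at -136. Non-ablated pool 5 also had the highest summed levels of recruited monocyte and neutrophil genes (10162 normalized counts, against 586 to 1513 in ablated and 763 to 1384 in the other non-ablated pools) and of T and NK cell genes (1801, against 323 to 603 in ablated and 302 to 596 in the other non-ablated pools). Results that rest on pools 9, 5, 3 or 1 are given with and without them below.

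Over all genes, limma called 57 of 15637 at a Benjamini-Hochberg adjusted p under 0.05 (0.365%), of which 51 were lower (0.326%) and 6 higher (0.0384%) in ablated distal cord. The fallen genes lay between -6.73 and -1.17 on the log2 scale and the risen ones between 2.57 and 4.25. All 57 had distal groups that did not overlap, as did 858 of all genes tested (5.49%), but the 57 were chosen on these same values, which favours such gaps. An unadjusted p under 0.05 was found for 1515 genes (9.69%). The 57 calls rest on a spread pooled over both regions. With 1 weight for each region limma called 6 genes (Cx3cr1, Csf3r, Fcrl1, Kif22, Mb21d1 and Selplg), and with the distal libraries alone limma called 0 (681 at an unadjusted p under 0.05), edgeR 0 (891 unadjusted) and DESeq2 93. With labelled age as a linear term limma called 7, but the labels cannot all be true ages, so that term is no correction for age. The call was kept by 52, 8 and 23 of the 57 genes when non-ablated pool 1, 3 or 5 was left out, and by 34, 53, 47 and 46 when ablated pool 7, 9, 11 or 13 was left out. Leaving out a lesion library changes only the pooled spread, and 13 to 46 genes were then called. The 8 that kept the call without any 1 distal library were Csf3r, Selplg, Fcrl1, Mb21d1, Tgfbr1 and Slamf6, which fell, and Kif22 and Myef2, which rose. In each setting run, all 57 kept their sign.

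**Figure D1:**
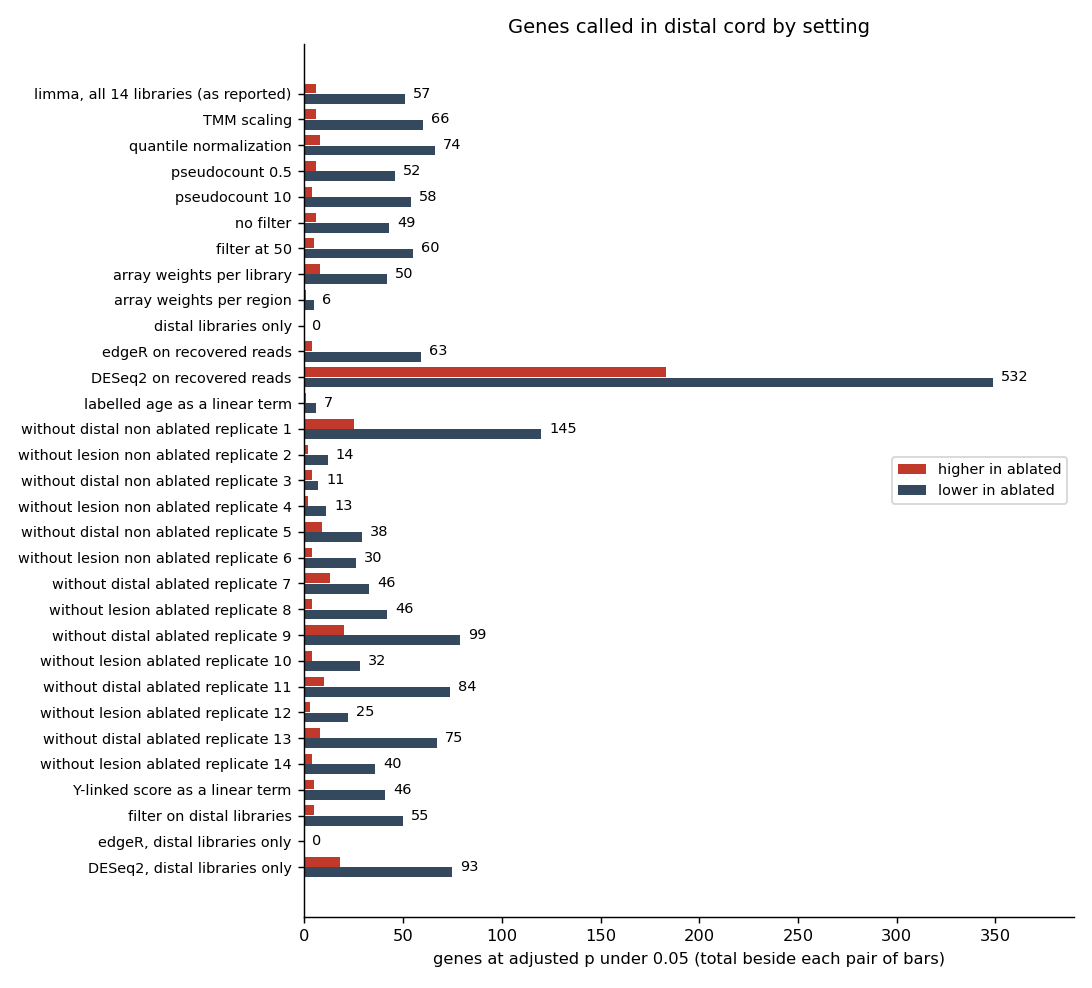
Genes at an adjusted p under 0.05 in ablated over non-ablated distal cord, under each setting run. Red bars count genes higher and dark bars genes lower in ablated cord, with the total beside each pair. The reported fit gives 57, and the count runs from 0 with the distal libraries alone (limma or edgeR) to 532 with DESeq2 on all libraries.

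Microglial loss was checked with the gene that drives the recombinase. Cx3cr1, the fractalkine receptor (Entrez 13051, chromosome 9, 120048683 to 120068296 on GRCm38), had normalized counts of 90.2, 21.7, 81.2 and 128 in ablated pools 7, 9, 11 and 13, against 864, 1361 and 510.1 in non-ablated pools 1, 3 and 5. Every ablated pool lay below every non-ablated pool, and pool 9 was lowest. Cx3cr1 fell by 3.62 ± 0.51 on the log2 scale (SE; limma adjusted p = 0.00922), to 80.2 ± 43.9 in ablated pools (SD, n = 4), against 911 ± 427 in non-ablated pools (SD, n = 3). Without non-ablated pool 3 its adjusted p was 0.071, and with the distal libraries alone 0.777. Values below follow the same order of pools. Changes are on the log2(normalized count + 1) scale, on which low genes appear to change less than they do.

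Csf1r, the receptor for the growth factors CSF1 and IL-34 that microglia need to survive, had 966, 241, 883 and 808 normalized counts in ablated pools, against 3719.8, 4241 and 3346 in non-ablated pools. The groups were far apart and pool 9 was again lowest. Csf1r fell by 2.55 ± 0.38 (adjusted p = 0.0122; 0.0869 without non-ablated pool 3). The genes of its ligands did not pass: Csf1 had 0.32 ± 0.25 and Il34 0.19 ± 0.78 (log2 fold change ± SE).

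Markers that separate microglia from other macrophages were less uniform than Cx3cr1. All 10 tested genes of the homeostatic microglia list were negative (median log2 fold change -1.35), where 49.1% of all genes tested were negative and their median was 0.0093. Of the 10, Cx3cr1 alone passed the test (0.326% of all genes fell), 5 had an unadjusted p under 0.05 and were lower (5.67% of all genes), and 4 lay wholly below the non-ablated pools (3.1% of all genes). Siglech, a microglial lectin, had 40.4, 135, 300.2 and 76 normalized counts in ablated pools, against 1109, 965 and 813 in non-ablated pools. Its groups did not overlap, yet its log2 fold change of -3.16 ± 0.85 missed the threshold (adjusted p = 0.173). Tmem119, a microglial membrane protein, ran from 1169 to 26069 in ablated pools and from 4215 to 24793 in non-ablated pools, and ablated pool 7 held the highest value of all 7. Without pool 9 the median of the list was -1.71, and without pool 7 it was -1.02. P2ry12, P2ry13 and Gpr34, which encode purinergic or lipid receptors of microglia, are listed at 0 in all 14 libraries, and the span of P2ry12 lies within that of Med12l. Sall1, a transcription factor of microglia, had 965, 700.0, 518 and 815 normalized counts in ablated pools, against 1179, 1242 and 440.2 in non-ablated pools, so its groups overlapped.

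For the lists that follow, 49.1% of all genes tested were negative, 0.326% fell and 9.69% had an unadjusted p under 0.05 by limma. The pan-macrophage list gave 17 negative values among 18 and its median was -1.54 (from -2.35 to -1.15 over settings). In it 4 members fell, among them Csf1r, Cd14 and Fcgr1. Lyz2, which encodes lysozyme, was the sole positive member at 1.02 ± 0.54 and did not pass. The list did not move as 1 block in pool 9. There Fcgr3, a low-affinity antibody receptor gene, was at 21.7 normalized counts, against 433 to 516 in the other ablated pools and 1757 to 2364 in non-ablated pools. The signalling adaptor gene Tyrobp was at 4118 in that pool, above the other ablated pools (287 to 1039) and above the non-ablated ones (2102 to 2911). Aif1, the marker known as IBA1, had 27.3, 80.2, 129 and 489 normalized counts in ablated pools, against 1535, 403 and 393 in non-ablated pools, which overlap through pool 13 (adjusted p = 0.208). Itgam, the integrin CD11b, ran from 35.6 to 115 in ablated and from 99.2 to 183 in non-ablated pools and did not pass either.

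**Figure D2:**
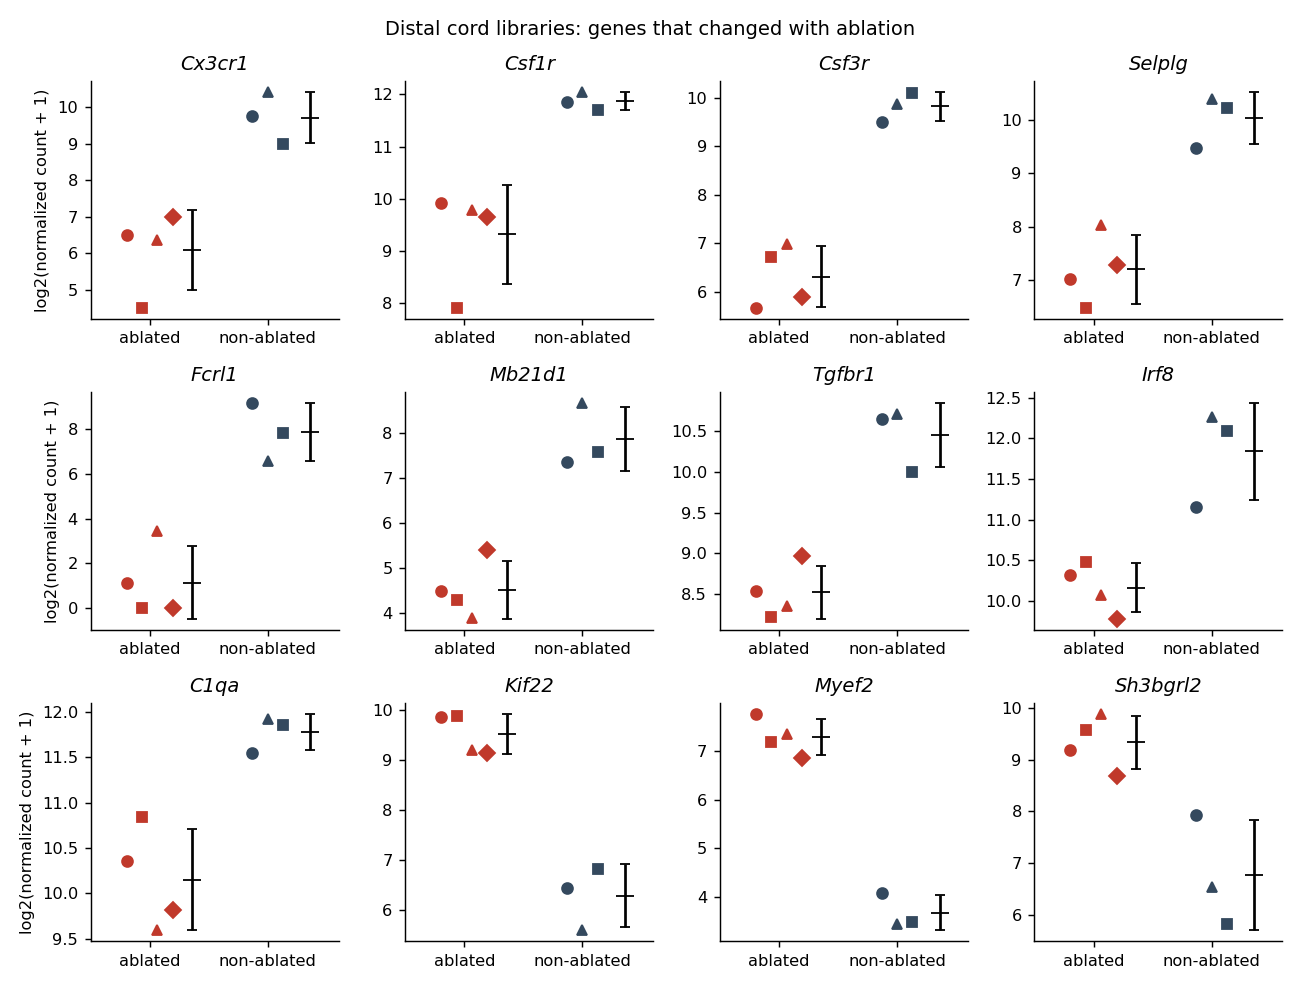
Normalized counts of 12 genes in each distal library, as log2(count + 1), with ablated pools in red (circle 7, square 9, triangle 11, diamond 13) left of non-ablated pools in dark (circle 1, triangle 3, square 5). Black marks are the group mean and SD (n = 4 and n = 3). In each panel the groups are apart: 9 genes lie lower and Kif22, Myef2 and Sh3bgrl2 lie higher in ablated pools.

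Receptors for colony-stimulating factors and TGF-beta were among the genes that fell. Of 12 tested genes of that signalling list 9 were negative (median -0.94) and 4 fell (Csf3r, Csf2rb, Csf1r and Tgfbr1). That median ran from -1.67 to -0.56 over the settings run and was -0.63 without ablated pool 9. Csf3r, the receptor of granulocyte colony-stimulating factor (Entrez 12986, chromosome 4, 126023441 to 126044975), had 49.8, 104, 126 and 58.1 normalized counts in ablated pools, against 729.8, 939.9 and 1097 in non-ablated pools. The gap between the groups exceeded the spread within either. Csf3r fell by 3.52 ± 0.34 (adjusted p = 0.000759, the lowest of all genes), and its adjusted p stayed at or below 0.00432 whichever 1 library was left out. With labelled age as a term, which is no correction for true age, it was 0.0349, and with the distal libraries alone 0.454.

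Tgfbr1, a kinase receptor for TGF-beta, had 371, 297, 327 and 500.5 normalized counts in ablated pools, against 1607, 1672 and 1024 in non-ablated pools. Its groups lay apart and it fell by 1.93 ± 0.25 (adjusted p = 0.00483). Its partner gene Tgfbr2 had -0.96 ± 0.28 and did not pass (adjusted p = 0.227), and the ligand genes Tgfb1, Tgfb2 and Tgfb3 had -0.49 ± 0.65, 0.27 ± 0.28 and -1.15 ± 0.88. Csf2rb, the shared beta chain of the receptors for GM-CSF, IL-3 and IL-5, fell by 2.76 ± 0.48 (adjusted p = 0.0268; 0.14 without non-ablated pool 3). Its partner Csf2ra had -0.65 ± 0.84.

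Transcription factors of the myeloid lineage gave 13 negative of 15 (median -0.99, from -1.48 to -0.73 over settings) and 4 falls. Irf8, a regulator of macrophage and microglial development, had 1274, 1422, 1080.4 and 878 normalized counts in ablated pools, against 2287, 4927 and 4376 in non-ablated pools. Every ablated value lay below every non-ablated one, with non-ablated pool 1 nearest to them. Irf8 fell by 1.68 ± 0.28 (adjusted p = 0.0237), Runx1, a regulator of blood cell development, by 2.47 ± 0.41 (adjusted p = 0.0237) and Mef2c by 1.23 ± 0.24 (adjusted p = 0.0408). Without non-ablated pool 3 their adjusted p-values were 0.13, 0.13 and 0.183. Spi1, which encodes PU.1, had 668, 964, 31 and 283 normalized counts in ablated pools, against 158, 768 and 1272 in non-ablated pools, so the groups overlapped (adjusted p = 0.818).

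PU.1 binds a purine-rich DNA box at many myeloid promoters, so the promoters of the fallen genes were searched for 3 letter strings of that box, on both strands, from 250 bases before to 50 after the start of transcription. Of the 51 fallen genes 35 matched a RefSeq promoter. GAGGAAG was in at least 1 promoter of 12 of the 35 (34.3%), against 16% of the 12371 tested genes with a promoter. AGGAAGT, which overlaps it, was in 10 of the 35 (28.6%), against 10.4%, and the joint string GAGGAAGT was in 3 of the 35 (8.57%), against 3.63%. Of 4 risen genes with a promoter, 0 held GAGGAAG and 1 (Mterf2) held AGGAAGT. A match is only the letters in this window, and the list of fallen genes was chosen by its values. The 3 strings overlap, so their shares are not separate results. The part of PU.1 in these falls was not tested. The promoters of 3 genes are printed to show the range among genes called under the most settings: Csf3r with 1 match to GAGGAAG or its reverse complement CTTCCTC, Fcrl1 with 2 and Cx3cr1 with 0. They are from RefSeq on GRCm38.p6, 5′ to 3′ on the gene's strand, with matches in capitals. The Csf3r window lies inside the gene, after its 5′ end at 126023441, so it belongs to an internal start.
Csf3r, chr4:126024409-126024708, plus strand: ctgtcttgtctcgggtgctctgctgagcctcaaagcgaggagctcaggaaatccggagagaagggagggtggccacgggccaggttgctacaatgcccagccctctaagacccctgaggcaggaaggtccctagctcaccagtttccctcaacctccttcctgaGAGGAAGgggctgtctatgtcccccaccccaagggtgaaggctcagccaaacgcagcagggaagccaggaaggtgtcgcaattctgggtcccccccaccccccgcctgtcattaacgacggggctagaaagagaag
Fcrl1, chr3:87376137-87376436, plus strand: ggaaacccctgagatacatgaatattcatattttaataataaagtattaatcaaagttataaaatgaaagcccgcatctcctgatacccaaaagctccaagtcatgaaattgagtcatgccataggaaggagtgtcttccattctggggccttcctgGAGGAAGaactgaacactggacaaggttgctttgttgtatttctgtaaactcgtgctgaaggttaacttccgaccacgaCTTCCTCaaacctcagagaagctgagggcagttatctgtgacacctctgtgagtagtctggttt
Cx3cr1, chr9:120068247-120068546, minus strand: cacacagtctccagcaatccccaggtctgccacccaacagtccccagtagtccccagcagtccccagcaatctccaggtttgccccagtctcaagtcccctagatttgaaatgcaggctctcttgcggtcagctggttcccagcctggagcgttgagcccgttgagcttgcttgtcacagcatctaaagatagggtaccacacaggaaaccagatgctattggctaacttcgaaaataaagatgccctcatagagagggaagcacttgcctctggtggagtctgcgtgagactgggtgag

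Genes for sensing microbes and antibodies were mostly negative, with few past the test. Of 18 Toll-like receptor and adaptor genes 15 were negative (median -0.95, from -2.09 to -0.83 over settings) and 2 fell. Over all genes tested 49.1% were negative and 0.326% fell. Cd14, which hands bacterial lipopolysaccharide to its receptor, had 419, 693, 352 and 407 normalized counts in ablated pools, against 1417, 2755 and 3179 in non-ablated pools, and fell by 2.36 ± 0.36 (adjusted p = 0.0136). Unc93b1, which carries the nucleic acid sensing Toll-like receptors to endosomes, fell by 1.6 ± 0.29 (adjusted p = 0.0269). Both pairs of groups lay apart, and without non-ablated pool 3 the adjusted p-values of Cd14 and Unc93b1 were 0.0953 and 0.13.

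Of 20 Fc receptor and phagocytosis genes 18 were negative (median -0.88, from -1.24 to -0.60 over settings) and 2 fell. Fcgr1, the high-affinity IgG receptor, had 362, 436, 297 and 208 normalized counts in ablated pools, against 783, 2799 and 1466 in non-ablated pools, and fell by 2.23 ± 0.38 (adjusted p = 0.0261; 0.13 without non-ablated pool 3). Vav1, an exchange factor in receptor signalling, fell by 1.93 ± 0.39 (adjusted p = 0.0491; 0.14 without non-ablated pool 3). Msr1, a scavenger receptor gene named here after its values were seen, went the other way. It had 357, 189, 251 and 427 normalized counts in ablated pools, against 3.99, 17.6 and 178 in non-ablated pools. Those groups did not overlap, but non-ablated pool 5 lay close to the lowest ablated pool, and Msr1 did not pass (3.52 ± 0.82, adjusted p = 0.0996).

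The complement list was mixed, with 9 of 14 negative (median -0.22, and -0.62 or -0.04 without non-ablated pool 3 or 5), and its 2 called members were subunits of C1q, the protein that starts the classical cascade and tags synapses and debris. C1qa had 1307, 1828, 775 and 902 normalized counts in ablated pools, against 2997, 3881 and 3707 in non-ablated pools. C1qb ran from 1207 to 2066 in ablated pools and from 3218 to 5149 in non-ablated pools. Neither gene's groups overlapped, and they fell by 1.62 ± 0.29 and 1.42 ± 0.25 (adjusted p = 0.0269 and 0.0261; 0.14 for each without non-ablated pool 3). C1qc, the third subunit, had -1.76 ± 0.50 (adjusted p = 0.204). The central component gene C3 was positive at 0.18 ± 0.32.

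Lists of genes that phagocytes turn on in injury or disease had medians near that of all genes. Of 16 disease-associated phagocyte genes 7 were positive and 9 negative (median -0.06), and of 20 lysosomal genes 8 were positive and 12 negative (median -0.12). At an unadjusted p under 0.05 by limma, 3 disease-associated genes were lower and 1 higher, and 2 lysosomal genes were lower. Over all genes tested 5.67% were lower and 4.02% higher at that threshold. In each list 2 genes lay wholly lower in ablated pools, beside 3.1% of all genes. Cst7, which encodes the protease inhibitor cystatin F, was the sole called member of either list. It had 17.8, 48.4, 73.9 and 94.7 normalized counts in ablated pools, against 352, 419.8 and 473 in non-ablated pools, and fell by 3.02 ± 0.57 (adjusted p = 0.0369; 0.14 without non-ablated pool 3). The median of the disease-associated list turned positive without non-ablated pool 3 or 5 or ablated pool 11 or 13, reaching 0.13 without pool 3, and that of the lysosomal list reached 0.0028 without ablated pool 11.

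**Figure D3:**
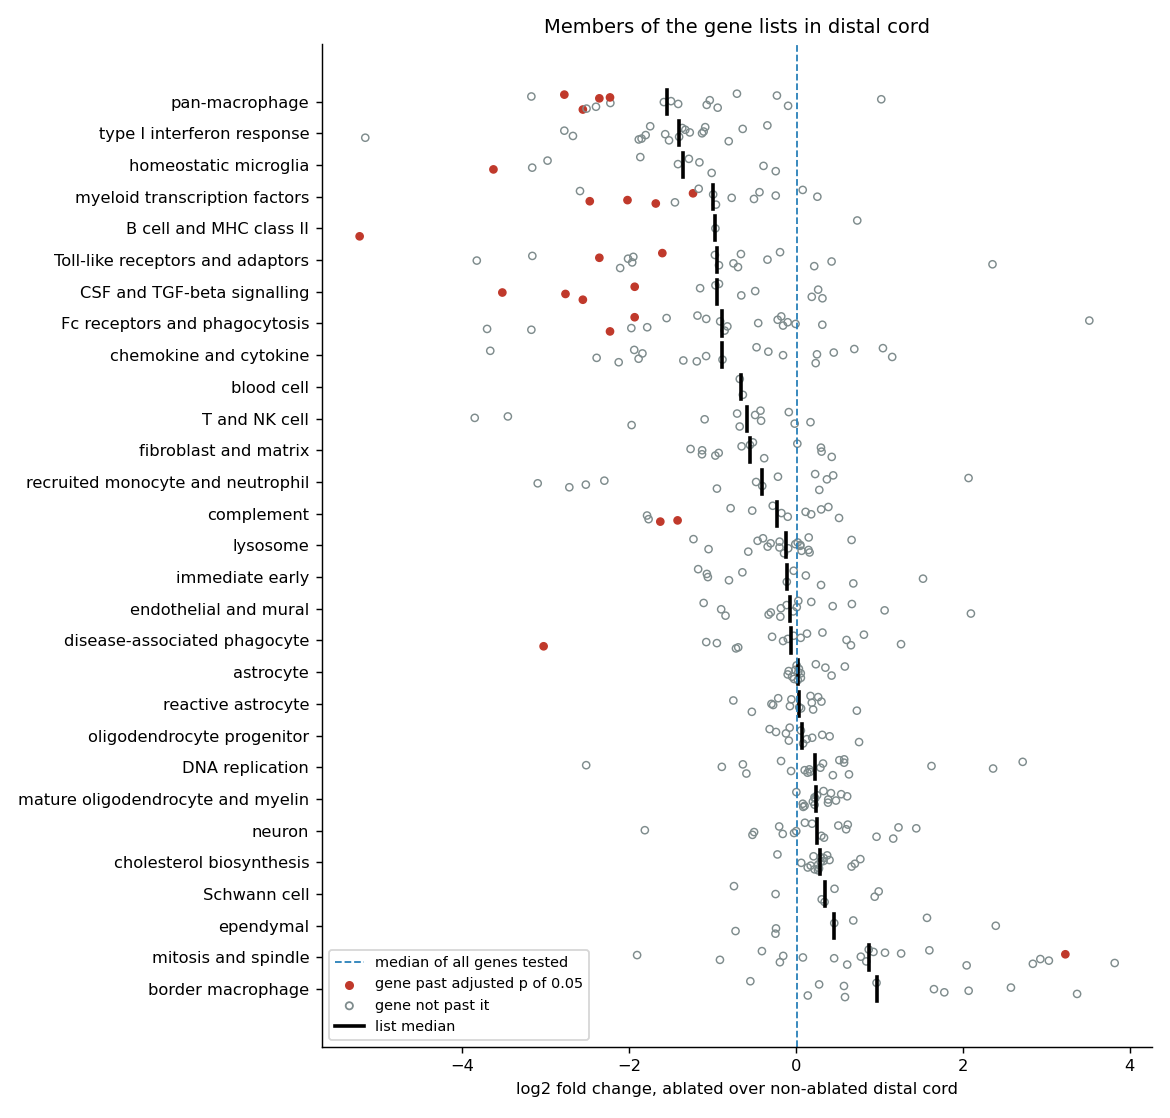
Log2 fold change, ablated over non-ablated distal cord, of every tested member of 29 gene lists. Filled points passed an adjusted p of 0.05, open points did not, black bars are list medians and the dashed line is the median of all 15637 genes tested, 0.0093. Filled points lie left of 0 except Kif22 in the mitosis and spindle list.

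Several genes best known from lymphocytes were among those that fell. Fcrl1, an Fc receptor-like protein of B cells (Entrez 229499, chromosome 3, 87376353 to 87403967), had 1.19, 0, 10.0 and 0 normalized counts in ablated pools, against 582, 95.9 and 230.3 in non-ablated pools. It was at or near 0 in ablated cord and clearly present in each non-ablated pool. Fcrl1 fell by 6.73 ± 0.75 (adjusted p = 0.00154), and its adjusted p was at most 0.008 with any 1 library left out. Cd79b, the beta chain of the B cell receptor complex, was at 0, 0, 0 and 19.7 in ablated pools, against 46.9, 100.3 and 104 in non-ablated pools, and fell by 5.23 ± 0.95 (adjusted p = 0.0306; 0.14 without non-ablated pool 3 and 0.101 without pool 5). Slamf6, a SLAM receptor of lymphocytes, had 2.37, 0, 0 and 0 normalized counts in ablated pools, against 16, 12.1 and 118 in non-ablated pools, so most of its counts came from non-ablated pool 5. It was counted in 2 reads over the ablated and 120 over the non-ablated pools, a ratio of 81.4 between non-ablated and ablated pools (95% interval 22 to 679.7, counting error only). Without non-ablated pool 5 that ratio was 25.9 (6.50 to 224), and without ablated pool 7 Slamf6 was at 0 in ablated pools and at least 14.0-fold lower than in non-ablated pools, against a floor of 3 reads per library. It fell by 4.46 ± 0.74 (adjusted p = 0.0237; 0.0508 at most with a lesion library left out). Cd69, an early activation marker, fell by 4.07 ± 0.81 (adjusted p = 0.0482; 0.197 without non-ablated pool 3 and 0.158 without pool 5).

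The B cell and MHC class II list could be tested for 3 of its genes, of which Cd79b fell and 2 did not pass. Ms4a1, H2-Aa, H2-Ab1 and H2-Eb1 are listed at 0 in all 14 libraries, which says nothing about their level, and Cd79a was at 0 in 6 distal libraries, with 1.27 normalized counts in non-ablated pool 5. Over the 9 genes of the B cell and MHC class II list the summed level was 76.0 to 191 in ablated pools and 80.9 to 938 in non-ablated pools. Among 12 tested T and NK cell genes the median was -0.58 and 11 were negative, but 0 passed the test by limma (0 at an unadjusted p under 0.05). That median was 0.34 without non-ablated pool 5. Cd3e was at 0 in every ablated pool and at up to 1.27 in non-ablated pools. The summed T and NK level was highest in non-ablated pool 5, as was Slamf6, whereas Fcrl1 was highest in pool 1 and Cd69 in pool 3. Without non-ablated pool 5, Fcrl1 and Slamf6 kept the call, while Cd79b and Cd69 lost it (limma adjusted p = 0.101 and 0.158). The part of T, NK or B cells in these falls was not tested.

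Several more surface receptors and signalling genes fell. Siglecf, a sialic acid binding lectin, had 1.19, 0, 0.913 and 5.36 normalized counts in ablated pools, against 44.9, 127 and 45.8 in non-ablated pools, and fell by 4.84 ± 0.71 (adjusted p = 0.0122). Cd86, a co-stimulatory ligand for T cells, had 7.12, 1.67, 28.3 and 53.6, against 298, 541 and 322 in non-ablated pools, and fell by 4.78 ± 0.76 (adjusted p = 0.0214). In both cases the groups were several-fold apart. Without non-ablated pool 3 their adjusted p-values were 0.0882 and 0.114. Slamf8, a SLAM family receptor of macrophages, fell by 4.40 ± 0.79, Il10ra, the ligand-binding chain of the IL-10 receptor, by 3.74 ± 0.70, and Pik3ap1, an adaptor between receptors and PI3 kinase, by 3.54 ± 0.67. Osm, a cytokine of the IL-6 family, fell by 3.52 ± 0.66, Capn3, a calcium-dependent protease, by 3.72 ± 0.68, Abhd15 by 4.02 ± 0.67 and Zkscan2, a zinc finger gene, by 3.65 ± 0.71. Rnase6, an antimicrobial ribonuclease, was counted in 2 reads over the ablated and 46 over the non-ablated pools, a ratio of 31.2 between non-ablated and ablated pools (95% interval 8.16 to 265, counting error only), and 17.2 (4.13 to 153) without non-ablated pool 5. Without ablated pool 13 it was at 0 in ablated pools and at least 4.81-fold lower than in non-ablated pools. The adjusted p-values of these last 8 genes ran from 0.0237 to 0.0442, and each lost its call without non-ablated pool 3 or 5. Abhd15 overlaps Trp53i13, so reads of these genes may be shared.

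A further 20 called genes were named after their values were seen. The 6 risen genes had already been named by rule, so these 20 could only be falls. Selplg, the selectin ligand PSGL-1 of leukocytes, had 129, 88.5, 260.1 and 155 normalized counts in ablated pools, against 711, 1352 and 1198 in non-ablated pools. Every non-ablated pool held more than any ablated one, and Selplg fell by 2.83 ± 0.33 (adjusted p = 0.00215). It passed in 28 of the 30 settings in which it was tested, as did Csf3r and Kif22. The settings that these genes missed were limma and edgeR on the distal libraries alone, which called 0 genes. Mb21d1, the gene of the cytosolic DNA sensor cGAS, had 21.4, 18.4, 13.7 and 41.1, against 162, 407 and 189.6 in non-ablated pools, and fell by 3.36 ± 0.44 (adjusted p = 0.00483). The others were the metal transporter Slc11a1, the endolysosomal nuclease Pld4, the collagen receptor Lair1, the junction protein F11r, the inflammasome sensor Naip5, the adaptor Blnk, the chemerin receptor Cmklr1, the phosphatase Ptpn6, the surface protein Cd83, the transcriptional regulators Tal1, Lmo2 and Elf4, and Trim14, Fam105a, Gmip, Gng10, Pkib and Ier5. Their log2 fold changes lay between -3.13 (Fam105a) and -1.17 (Gng10), with limma adjusted p-values from 0.0237 to 0.0478. Unlike Selplg and Mb21d1, each of these lost its call without non-ablated pool 3. Their adjusted p-values were then 0.071 (Blnk) to 0.197 (Elf4).

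Only 6 genes rose, and Kif22 was the clearest. Kif22, a kinesin that moves chromosomes on the mitotic spindle (Entrez 110033, chromosome 7, 127027729 to 127042467), had 925, 934, 586 and 566 normalized counts in ablated pools, against 85.9, 47.4 and 112 in non-ablated pools. Each ablated value stood far above each non-ablated one. Kif22 rose by 3.23 ± 0.35 (adjusted p = 0.00154), with a highest adjusted p of 0.00628 over libraries left out. Its adjusted p was 0.454 with the distal libraries alone and 0.0349 with labelled age as a term, which is no correction for true age. Myef2, a transcriptional repressor named for its action on myelin basic protein, had 216, 145, 162 and 115 normalized counts in ablated pools, against 16, 9.92 and 10.2 in non-ablated pools, and rose by 3.62 ± 0.46 (adjusted p = 0.00429). The groups were again well apart, and the gene overlaps Slc24a5, so the origin of its reads is uncertain without strand.

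Sh3bgrl2, a small SH3-binding protein, had 585, 765, 941 and 411 normalized counts in ablated pools, against 242, 92.6 and 56 in non-ablated pools, and rose by 2.57 ± 0.43 (adjusted p = 0.0237). Tshr, the thyrotropin receptor, had 47.5, 56.8, 94 and 24.1, against 3.99, 4.41 and 3.82 in non-ablated pools, and rose by 3.33 ± 0.57 (adjusted p = 0.0261). Neither pair of groups overlapped. Slc16a13, a monocarboxylate transporter, had 176, 127, 20.1 and 25, against 5.99, 3.31 and 0 in non-ablated pools, and rose by 4.25 ± 0.80 (adjusted p = 0.0369). Mterf2, a mitochondrial transcription termination factor, was at 0 in all 3 non-ablated pools and at 5.93, 55.1, 7.3 and 7.15 in ablated pools, at least 5.60-fold higher against a floor of 3 reads per library. Pool 9 carried that bound, which was 2.01-fold without it. The calls of these 4 were lost without non-ablated pool 3, with adjusted p-values of 0.114 to 0.14.

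Spindle genes as a group pointed the same way as Kif22, but 1 passed the test. Of 21 mitosis and spindle genes 16 were positive and 5 negative, with a median of 0.87 that stayed between 0.64 and 1.15 in every setting run, scalings included. Kif22 was the 1 that rose (0.0384% of all genes rose). Ccnb2, a mitotic cyclin, had 52.2, 1047, 214 and 146 normalized counts in ablated pools, against 23, 19.8 and 5.09 in non-ablated pools (3.82 ± 0.79, adjusted p = 0.0575). Bub1b, a spindle checkpoint kinase, had 209, 249, 203 and 310.1, against 8.98, 154 and 15.3 in non-ablated pools (3.03 ± 0.66, adjusted p = 0.0685). Groups did not overlap in either, and together with Kif22, Aurkb and Nusap1 they make 5 of 21 members that lay wholly higher in ablated pools, beside 2.39% of all genes tested. Kif20a, another mitotic kinesin gene, lay wholly lower (-1.90). Mki67, the proliferation marker Ki-67, was at 17.8, 1275, 53.8 and 126 in ablated pools, against 11, 71.6 and 22.9 in non-ablated pools, with pool 9 far above the rest (adjusted p = 0.576). The mean log2 level over the list was 6.36 to 6.67 in ablated pools and 5.23 to 5.57 in non-ablated pools. The summed level of the list overlapped, at 5965 to 16537 normalized counts in ablated pools and 4868 to 9779 in non-ablated pools.

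Genes of DNA synthesis were less even: 14 of 20 were positive, with a median of 0.23. By limma 0 passed, with 3 at an unadjusted p under 0.05, beside 9.69% of all genes tested. Ccna2, an S-phase cyclin that overlaps Exosc9, had 2.72 ± 0.96 and Rrm2, a subunit of ribonucleotide reductase, 2.36 ± 0.94. Cdc6, a licensing factor, had -2.51 ± 0.80. The mean log2 level of this list was 6.63 to 7.22 in ablated pools and 6.31 to 6.99 in non-ablated pools, so the groups overlapped.

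**Figure D4:**
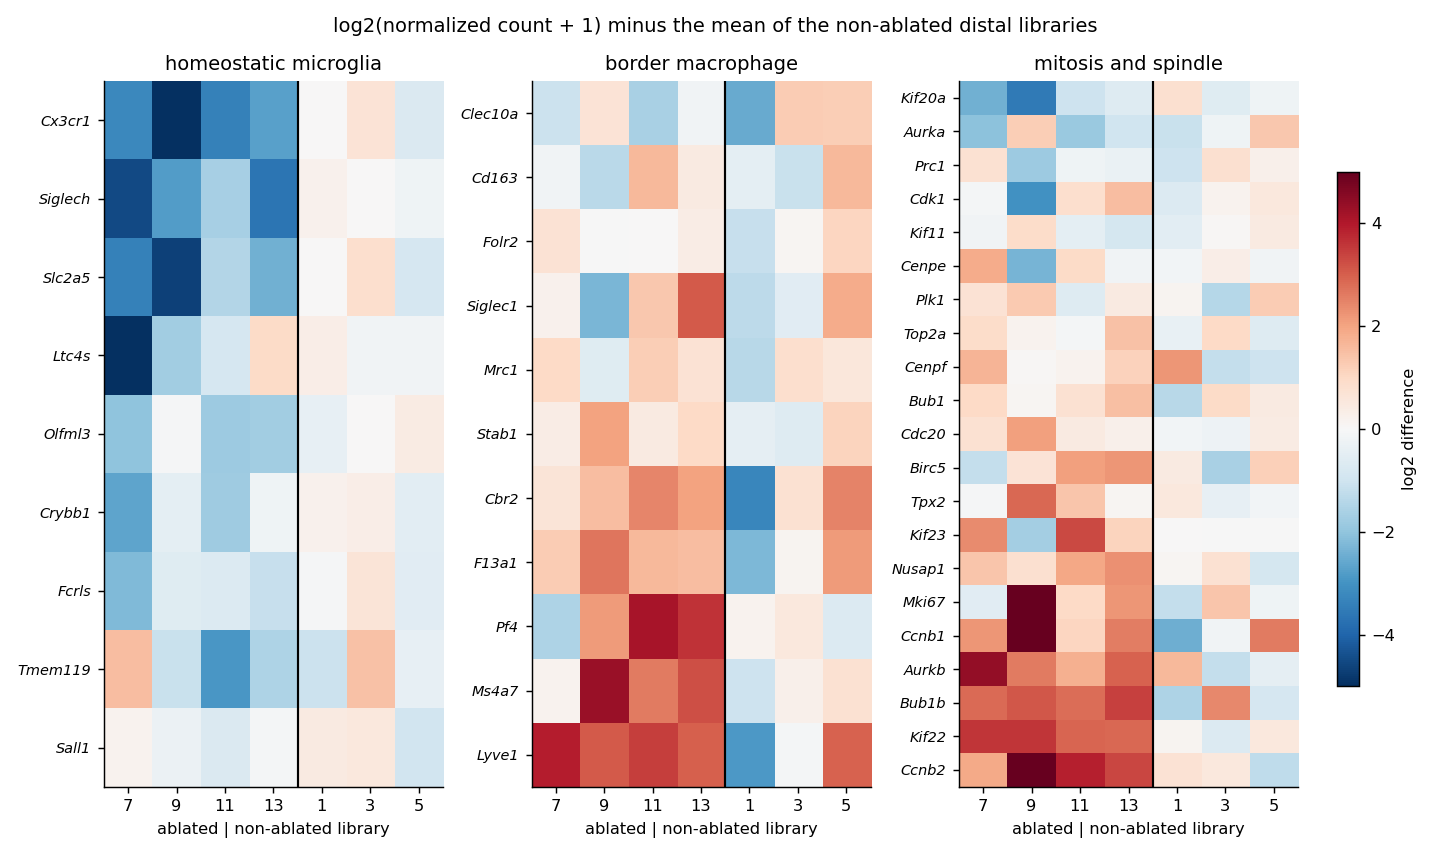
Log2(normalized count + 1) of each distal library minus the mean of the non-ablated distal libraries, for genes of the homeostatic microglia, border macrophage and mitosis and spindle lists, with ablated pools 7, 9, 11 and 13 left of the line and non-ablated pools 1, 3 and 5 right of it. Red is higher and blue lower, with colours saturating at 5. Cx3cr1 is blue in each ablated pool, Kif22 and Lyve1 are red in each, and Tmem119 and Mki67 differ between ablated pools.

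Border macrophages, which live in the meninges and around vessels, were represented by 11 genes, of which 10 were positive with a median of 0.97, and 0 passed by limma (3 at an unadjusted p under 0.05). Lyve1, a hyaluronan receptor, had 445, 244, 322 and 232 normalized counts in ablated pools, against 3, 26.4 and 224 in non-ablated pools (3.37 ± 1.03, adjusted p = 0.255). F13a1, a coagulation factor subunit, had 637, 1696, 821 and 775, against 54.9, 288 and 1159 in non-ablated pools (1.78 ± 0.71, adjusted p = 0.42). Non-ablated pool 5 lay near the ablated pools for both genes, and pools 1 and 3 lay far below. Mrc1, the mannose receptor CD206, ran from 100.2 to 365 in ablated and from 57.9 to 277 in non-ablated pools. The list's median was 0.02 without non-ablated pool 1 and -0.15 with labelled age as a term.

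Genes of recruited cells were mixed in sign. Of 13 tested recruited monocyte and neutrophil genes 5 were positive and 8 negative (median -0.40, and 0.05 without non-ablated pool 5). By limma 0 passed, with 2 at an unadjusted p under 0.05, beside 9.69% of all genes tested. Ccr2, the chemokine receptor of recruited monocytes, had 218, 40.1, 113 and 77.8 normalized counts in ablated pools, against 4.99, 106 and 743 in non-ablated pools. The non-ablated values spanned the ablated ones on both sides.

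All 19 tested type I interferon response genes were negative (median -1.40), yet 0 passed by limma (9 at an unadjusted p under 0.05) and in all 19 the groups overlapped. Mx1, an antiviral GTPase, had 8.31, 1.67, 383 and 67 normalized counts in ablated pools, against 93.8, 2379.9 and 4642 in non-ablated pools (-5.16 ± 1.45, adjusted p = 0.195). Non-ablated pool 1 was low and pools 3 and 5 were high. The same split ran through the list, whose summed level was 7465 to 20358 in ablated pools and 6730, 56694 and 109650.0 in non-ablated pools 1, 3 and 5. Without pool 5 the median was -0.74 and without pool 1 it was -2.64.

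Of 19 chemokine and cytokine genes 13 were negative (median -0.88, and -0.27 without non-ablated pool 5), and 0 passed by limma (6 at an unadjusted p under 0.05). Il1b, the cytokine interleukin-1 beta, was at 1.19, 0, 2.74 and 2.68 normalized counts in ablated pools, against 9.98, 63.9 and 35.6 in non-ablated pools, apart but short of the threshold (-3.66 ± 0.79, adjusted p = 0.0685). The array-weighted fit per library gave the list a median of 0.09.

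No gene of the neural, vascular, fibroblast, Schwann cell, ependymal, haemoglobin, cholesterol or immediate early lists passed the test by limma, and 0 to 2 genes of each had an unadjusted p under 0.05. The 16 myelin genes were all positive, with small values (0.0064 to 0.62, median 0.24, and 0.12 to 0.66 over settings). Cldn11, a myelin tight junction protein, had 0.48 ± 0.23 and Mbp, myelin basic protein, 0.09 ± 0.24. The 18 cholesterol biosynthesis genes were positive in 17 cases, with a median of 0.29 and 0.22 to 0.62 over settings. Fdps, farnesyl diphosphate synthase, had 2740.4, 4673, 1813 and 2036 normalized counts in ablated pools, against 1334, 1569 and 2146 in non-ablated pools, so its groups overlapped (0.67 ± 0.31, adjusted p = 0.512).

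Astrocyte genes were centred on 0, with a median of 0.03 over 15 genes that turned negative under TMM scaling, quantile normalization, edgeR and without non-ablated pool 5, and Gfap, the astrocyte filament protein, had 0.02 ± 0.24. Reactive astrocyte genes had a median of 0.04 over 15, negative with edgeR, DESeq2, the age term and without non-ablated pool 1 (-0.45) or ablated pool 11 or 13. Oligodendrocyte progenitor genes had a median of 0.07 over 12 genes, with Pdgfra at 0.09 ± 0.23, and that median was negative with array weights per library and without ablated pool 7 or 9 or non-ablated pool 1. Neuron genes had a median of 0.25 over 18 genes but -0.28 without non-ablated pool 5 and -0.25 without ablated pool 11, and Rbfox3, which encodes NeuN, had 1.17 ± 0.77. Endothelial and mural genes had a median of -0.07 over 16, positive after quantile normalization, with array weights per library and without non-ablated pool 5 or ablated pool 9 or 13. Fibroblast and matrix genes were negative in 9 of 13 cases (median -0.55, from -1.57 to -0.17 over settings). Schwann cell, ependymal, haemoglobin and immediate early genes had medians of 0.34, 0.46, -0.65 and -0.11 over 7, 7, 2 and 11 genes, and the last 3 changed sign with a library left out. Hbegf, the mouse gene of the protein that diphtheria toxin uses as a receptor in other species, had 2947, 2132, 2188 and 2342 normalized counts in ablated pools, against 1466, 1869 and 1784 in non-ablated pools (0.49 ± 0.25, adjusted p = 0.572). Its groups did not overlap.

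To ask whether the distal effect differs from that in lesions of the same groups, the distal log2 fold change minus the lesion one was tested over all genes. Which lesion piece shares a pool with which distal piece is not labelled, so the test treats the 14 libraries as independent, although the pieces share mice. The test called 2 of 15637 genes (0.0128%), with 885 at an unadjusted p under 0.05 (5.66%). Kif22 had 3.23 ± 0.35 in distal cord and -0.43 ± 0.35 in lesions, a difference of 3.66 ± 0.49 (adjusted p = 0.0383). In lesions it averaged 1415 ± 584 normalized counts in ablated pools (SD, n = 4) and 1808 ± 179 in non-ablated pools (SD, n = 3), so the low non-ablated distal pools stood apart from the other 3 groups. Cdhr3, a cadherin-related protein, had 32, 53.5, 58.4 and 28.6 normalized counts in ablated distal pools, against 9.98, 9.92 and 10.2 in non-ablated ones, and 23.3 ± 10.4 in ablated lesions (SD, n = 4), against 166 ± 27.3 in non-ablated lesions (SD, n = 3). Its difference was 4.80 ± 0.68 (adjusted p = 0.0383), while its distal value of 1.94 ± 0.48 did not pass alone (adjusted p = 0.133). Both calls are fragile: 0 to 2 genes were called with a library left out, 0 with 1 weight per region and 0 with a Y-linked score as a term.

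Of the 51 genes that fell in distal cord, 48 also had negative log2 fold changes in lesions, beside 48.7% of all genes tested, and 7 fell there (0.294% of all genes were called in lesions). These 7 were Cx3cr1, Csf1r, Fcgr1, Mef2c, Cst7, Capn3 and Tal1. The median over the 51 was -2.51 in distal cord, where they were chosen, and -0.84 in lesions. In 5 of them (Cx3cr1, Cst7, Capn3, Mef2c and Tal1) the lesion value was more negative than the distal one, and Csf2rb, Slc11a1 and Zkscan2 were positive there. Csf2rb averaged 5135 ± 1219 normalized counts in ablated lesions (SD, n = 4) and 4363 ± 1108 in non-ablated lesions (SD, n = 3), so it was not lower where Csf1r was. The limma test of the difference called 0 of these 51 genes, and 33 had an unadjusted p under 0.05, a share raised by their choice on the distal values. Spindle genes went opposite ways by sign in the regions, with a median of 0.87 in distal cord and -0.69 in lesions, where all 21 were negative. Kif22 was the sole member whose difference passed.

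**Figure D5:**
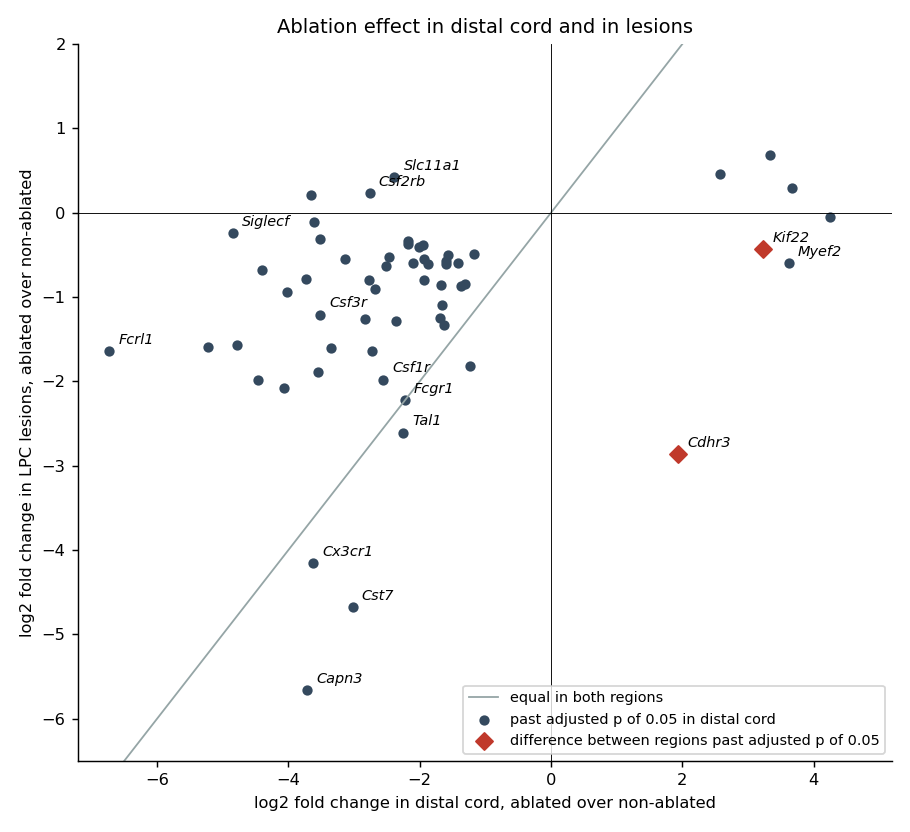
Log2 fold change, ablated over non-ablated, in distal cord (horizontal) and in LPC lesions (vertical) for the 57 genes called in distal cord and Cdhr3. The grey line marks equal values, and red diamonds are the 2 genes whose difference between regions passed an adjusted p of 0.05. Most fallen genes lie left of the line, nearer 0 in lesions, while Cx3cr1, Cst7 and Capn3 lie below it.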

How the data were processed

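RNA of pooled ventral cord was copied by multiple displacement amplification (Qiagen FX Single Cell RNA kit) and sequenced for 75 cycles, per the labels' protocols, which give RIN values above 0.68. Software listed in the submitters' processing notes was DESeq2, BWA 0.7.17.1 and bcl2fastq, with build mm10. The sources used here do not give the counter, strand use or annotation. The deposited values are a signal: counts per gene after the authors' scaling by library size factors. Dividing each column by its smallest step returned whole reads for 100% of values within 0.01. The 8 entries without a symbol have gene identifiers, held at most 0.0239% of a library's reads and stayed in. Intervals and the floor of 3 reads for a gene at 0 cover counting error only: no molecular identifiers were reported, so amplified copies of 1 molecule may count repeatedly.

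Tests used limma 3.58.1 (R 4.3.3, trend) on log2(normalized count + 1) for the 15637 of 24116 genes that reached 10 normalized counts in 3 or more libraries. One fit of 4 group means over 14 libraries left 10 residual degrees of freedom, with 4.23 from the prior. Benjamini-Hochberg adjustment ran over all genes tested, within each comparison. P-values measure the spread between pools, taken over both regions. Lesion groups varied less (median SD 0.40 and 0.24) than distal groups (0.66 and 0.53). The reported standard errors are therefore mostly smaller than distal libraries alone give (median ratio 1.22). Libraries of a group differed by more than sampling noise. Lists are described by counts and medians, without a list test. edgeR 4.0.16 and DESeq2 1.42.0 were run on recovered reads as alternatives.

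Named genes were the 15 largest falls and rises (6 existed) among called genes with groups apart and a plain gene symbol, every called member of 29 lists or else up to 3 with the smallest p, a fixed set of 18 and the genes of the difference test. The groups, lists and rules were chosen with earlier results of these data known. RefSeq identifiers matched for 24061 of 24116 genes, and coordinates are 1-based. A few list members and called genes are counted but not reported by name here. The code was tested on simulated data.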

Additional observations from a re-analysis of the deposited data

Results flagged for a closer look

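Of the 105 genes screened over the 4 ablated distal pools, 15 had 1 pool far from the other 3. So did the leading principal component (pool 9, gap over range 0.834). The cut-off marks about 1 in 20 groups of independent, normally distributed values. These are normalized counts of genes that share the same 4 pools, so 15 of 105 cannot be set against that rate. Pool 9 stood apart upward for Mki67 (gap over range 0.914), Slco1a4 (0.903), Kdr (0.872), Cspg4 (0.871), C1qb (0.841), Mterf2 (0.972) and Gzmb (1.0). Pool 13 stood apart for Cd79b, Rnase6 and Gzma (1.0 each). Pool 11 stood apart for Cd4 (1.0), Fcrl1 (0.882) and Slc17a6 (0.8295), and pool 7 for Slamf6 (1.0) and Tmem119 (0.883). Where the value is 1.0 the other 3 pools were at 0, which alone gives that value. For Slamf6 and Rnase6 the remaining pool held 2 reads. Without pool 9 the distal comparison called 99 genes.

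The test of the difference between regions marked Kif22 (3.66, distal minus lesion log2 fold change) and Cdhr3 (4.80). These values are those given above.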

How the results depend on the processing

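The 57 distal calls became 6 with 1 weight per region, 7 with labelled age as a term, 0 with the distal libraries alone (limma, 681 at an unadjusted p under 0.05; edgeR, 891, and DESeq2 called 93) and 532 with DESeq2 on all libraries, where 34.4% were higher against 10.5% by limma. Between 11 (without non-ablated pool 3) and 145 (without non-ablated pool 1) were called with a library left out, with 99 without ablated pool 9, 14, 13 and 30 without non-ablated lesion pool 2, 4 or 6, and 32 and 25 without ablated lesion pool 10 or 12. The median ratio of standard errors to those reported was 1.22 with distal libraries alone and 1.61 with the age term. The 2 calls of the difference test became 0 without a filter (limma, 1031 unadjusted), 1 with a filter at 50, 6 with array weights per library, 0 with 1 weight per region (860.0 unadjusted), 94 with DESeq2 on all libraries, 1 with the age term, 0 with the Y-linked score (892 unadjusted), and 0 to 2 with a library left out. The cause of these moves was not tested. The other settings (TMM, quantile, both pseudocounts, edgeR on all libraries, the Y-linked score, the remaining filters) gave 46 to 74 distal calls, edgeR 63. The Y-linked score, the filter on distal libraries and the fits of edgeR and DESeq2 on distal libraries were chosen after seeing the data. No named gene past the threshold changed sign in any setting. No paired analysis was possible because the 2 genotypes are different pools with no shared number, and no label ties the lesion and distal pieces of a pool. Any such pairing is ignored in the pooled spread, its 10 residual degrees of freedom and the difference test.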
